A study of Mus musculus with 7 samples.

Results

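The p53 pathway was followed through 31 mouse genes in RNA sequencing of fetal liver at embryonic stage E12.5. The genes are known members of the pathway, listed with earlier results of these data known but not by a threshold on their values. They comprise Trp53 and its regulators Mdm2 and Mdm4 (3 genes), targets for cell-cycle arrest and growth control (9), targets for cell death (11), and targets for DNA repair, nucleotide supply and metabolism (8). All 31 were found among the 39017 genes of the files, and all 31 were among the 15800 genes that passed the filter on low counts. The 7 libraries carry separate fetal liver numbers in their titles and were made from single-cell suspensions of livers of the C57BL/6 strain. The 2 TAF10KO livers carried lox-flanked Taf10 and EpoCre, a Cre recombinase expressed from the erythropoietin receptor gene. The sample titles give both TAF10KO alleles as lox, and the series text gives 1 lox allele over 1 knockout allele. Among the 3 TAF10HET livers, all with EpoCre, replicate 1 combined a lox allele with a wild-type one, while replicates 2 and 3 combined a knockout allele with a wild-type one. The 2 WT livers had lox-flanked alleles on both chromosomes and no Cre, so they control for the lox sites but not for Cre. Taf10 encodes a subunit shared by TFIID, which brings RNA polymerase II to promoters, and the SAGA coactivator. The driver is active in erythroid cells, and liver cells without Cre keep their lox alleles.

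As background, p53 is a transcription factor whose protein is kept low by MDM2, a ubiquitin ligase that is itself a p53 target, and by the related protein MDM4. DNA damage, faults in ribosome production and blocked transcription stabilise the protein, largely without a change in Trp53 mRNA. p53 then raises the mRNA of genes that stop the cell cycle, such as Cdkn1a (p21), of genes that open the mitochondrial death pathway, such as Bbc3 (PUMA), Pmaip1 (NOXA) and Bax, and of genes for repair and nucleotide supply. In the erythroid lineage p53 is best known for its part in anaemias caused by ribosomal defects.

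Promoter sequences are shown for the inhibitor gene Cdkn1a and the kinase gene Plk2, which had the largest fitted differences between TAF10KO and WT, and for Mdm2 and Bax, textbook p53 targets with small differences. RefSeq promoter entries on the GRCm38.p6 build were found for 23 of the 31 genes, with 32 start sites. Each window holds the 250 bases before a start, 5′ to 3′ on the gene's strand. Capitals mark the p53 decamer half-site, a palindromic consensus that reads alike on both strands and that occurs as a pair in a full p53 element. The windows are chr17:29090729-29090978 on the plus strand for the upstream start of Cdkn1a, chr10:117710759-117711008 on the minus strand for Mdm2, chr7:45466899-45467148 on the minus strand for Bax and chr13:110394794-110395043 on the plus strand for Plk2.
Cdkn1a: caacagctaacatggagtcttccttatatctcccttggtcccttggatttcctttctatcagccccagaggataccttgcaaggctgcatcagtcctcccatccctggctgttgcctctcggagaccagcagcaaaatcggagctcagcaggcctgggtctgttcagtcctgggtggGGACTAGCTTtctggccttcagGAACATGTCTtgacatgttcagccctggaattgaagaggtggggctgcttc
Mdm2: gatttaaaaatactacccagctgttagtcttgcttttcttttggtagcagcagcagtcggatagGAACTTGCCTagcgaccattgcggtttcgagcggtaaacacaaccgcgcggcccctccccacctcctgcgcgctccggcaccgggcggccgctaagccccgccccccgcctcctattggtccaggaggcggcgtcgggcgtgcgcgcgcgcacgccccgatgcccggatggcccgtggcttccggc
Bax: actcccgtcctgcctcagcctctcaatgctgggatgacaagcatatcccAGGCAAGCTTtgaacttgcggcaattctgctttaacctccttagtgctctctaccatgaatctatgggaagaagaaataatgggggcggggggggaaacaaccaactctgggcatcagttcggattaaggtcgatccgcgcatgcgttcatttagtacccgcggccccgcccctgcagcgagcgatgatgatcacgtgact
Plk2: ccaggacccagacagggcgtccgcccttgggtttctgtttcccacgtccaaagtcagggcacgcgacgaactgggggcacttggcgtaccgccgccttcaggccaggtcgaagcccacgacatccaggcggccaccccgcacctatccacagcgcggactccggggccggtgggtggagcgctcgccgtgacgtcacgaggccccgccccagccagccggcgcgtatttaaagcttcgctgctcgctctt
The Cdkn1a window held matches that begin 73 and 51 bases before its upstream start, and the window of the other Cdkn1a start, 2790 bases downstream, held none. The match at 51 bases is directly followed by tgacatgttc, which misses the consensus in its first base and so stays in lower case. The marked matches were not examined as a pair. In Mdm2 the match began 186 bases before the start, and in Bax 201 bases before it. The Plk2 window held no match, which says only that these letters are not in it. Among the 32 windows 11 held a match (34.4%), compared with 7.13% of 32851 promoter windows of the same length. The 11 windows belonged to Aen, Bax, Ccng1, Cdkn1a, Ei24, Gadd45a, Mdm2, Polk, Rps27l, Sesn1 and Trp53. The genes were picked as known p53 targets, so this share describes the list and is no finding about it. The letters TATAAA, the core of the TATA box that TFIID contacts, were in 2 of the 32 windows on either strand (Eda2r and Trp53, 6.25%) and in 12.4% of all windows.

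Library totals over genes lay between 18008391 and 43401474 counts. Levels are given in CPM, counts scaled by each library's total and TMM factor. Titles hold a date-like code: the earlier one, called the first here, covers replicate 1 of each genotype, and the second covers the other 4 libraries. Taf10 stood at 37.8 and 43.8 CPM in the TAF10KO libraries and between 63 and 96.5 CPM in the other 5. Its counts may include exons outside the deleted part. The erythroid markers (10 of 10 tested) summed to between 21400 and 42582 CPM, and the hepatocyte markers (10 of 10) to between 12617 and 20146 CPM. No marker gene was at 0 in every library. TAF10HET replicate 1 and TAF10KO replicate 2 were male by their Xist level, and the other 5 were female. P-values measure the spread between these livers, and whether any were littermates is not stated.

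Abundance spanned a wide range across the pathway. On a scale of CPM per kilobase of exon, averaged over the 7 libraries, Rps27l, which encodes a relative of a ribosomal protein, had the highest level at 175. It was followed by Btg2 at 47.6, Bax at 42.6, Gadd45a at 38.8 and Trp53 at 36 CPM per kilobase. Cdkn1a held rank 22 of 31 with 2.37 CPM per kilobase, and the death receptor genes Fas and Eda2r were lowest with 0.382 and 0.16. The fewest counts of Fas and Eda2r in a library were 7 each, so differences in them were poorly measured. The other 29 genes had a mean log2 CPM of at least 1. Between the lowest and the highest library 8 genes varied by more than 2-fold, among them Eda2r (5.43-fold), Phlda3 (4.93-fold), Plk2 (3.71-fold), Bbc3 (3.43-fold) and Cdkn1a (2.69-fold). The repair genes Xpc (1.21-fold), Polk (1.22-fold) and Ercc5 (1.28-fold) varied little.

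**Figure D1:**
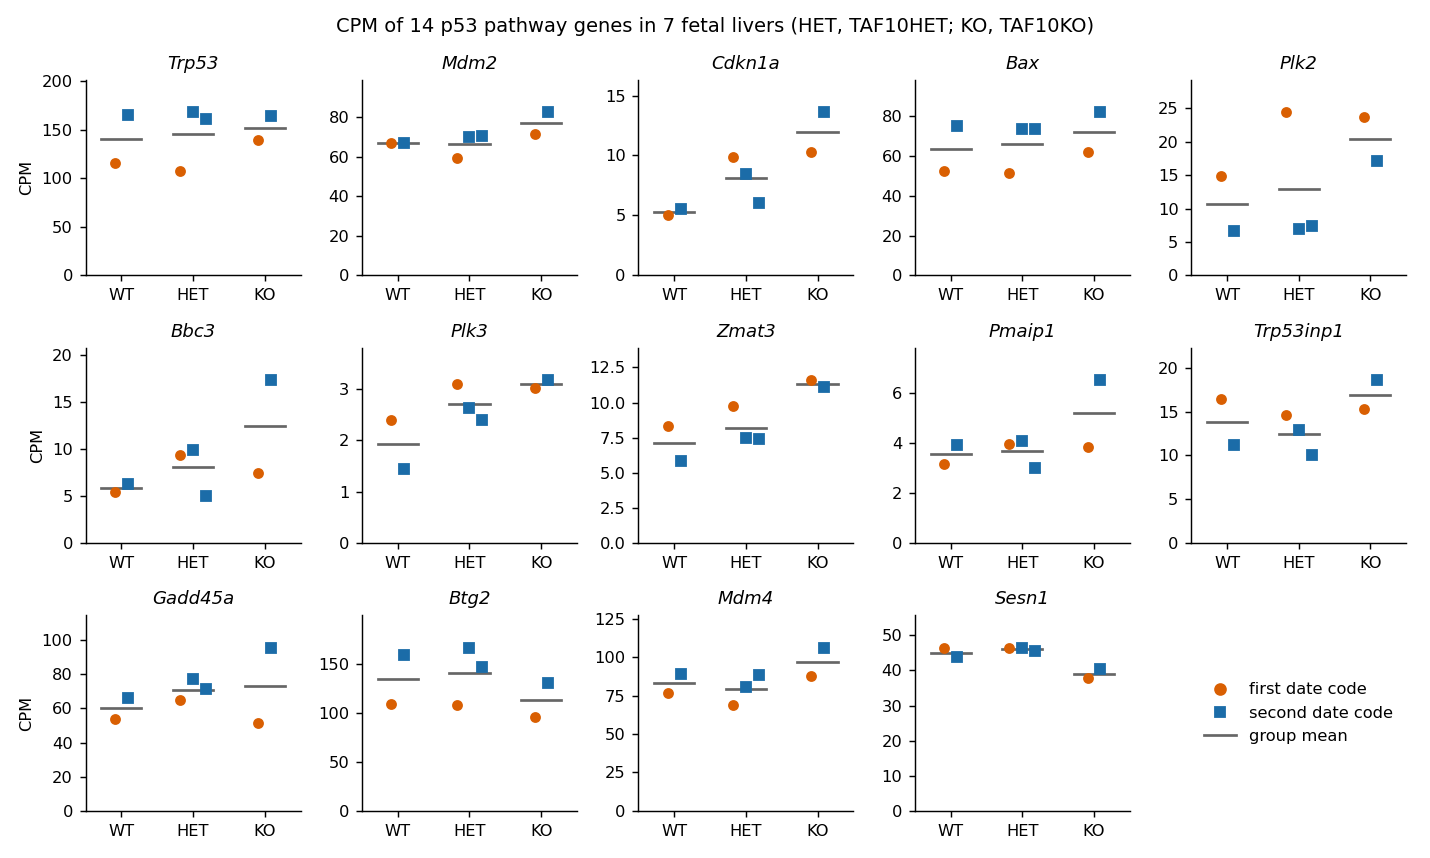
Normalised counts (CPM, linear axes from 0) of the 14 genes given library by library, by genotype, with 1 point per library (circles for the first date code, squares for the second) and a line at each group mean. Cdkn1a was at 5.06 and 5.57 CPM in WT and at 10.3 and 13.6 CPM in TAF10KO, while Trp53 lay between 161 and 168 CPM in all 4 libraries of the second date code.

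The comparison of TAF10KO with WT bears on whether p53 and its targets differ when Taf10 is lost in erythroid cells. The largest fitted differences were in Cdkn1a (2.26-fold), Plk2 (2.09-fold) and Bbc3 (2.04-fold), all higher in TAF10KO, followed by Plk3 (1.63-fold) and Zmat3 (1.62-fold). Trp53 (1.09-fold), Mdm2 (1.14-fold) and Mdm4 (1.17-fold) differed little. In edgeR's quasi-likelihood test with date code and genotype as terms, 0 of the 31 genes passed an adjusted p of 0.05 over all genes, against 0.608% of the 15800 genes tested. At an unadjusted p under 0.05 edgeR gave 6 higher genes (Bax, Cdkn1a, Mdm4, Plk2, Plk3 and Zmat3, against 9.81% of all genes) and 2 lower ones (Btg2 and Sesn1, against 8.1%). DESeq2 with the same terms called 2 genes, Cdkn1a and Plk2, both higher, of the 29 for which it gave an adjusted p, against 4.41% of all genes (2.43% higher and 1.99% lower). The fitted log2 difference had a median of 0.13 over the 31 genes and of 0.03 over all genes. It was above 0 in 23 of the 31 genes, beside 8570 of the 15800 genes tested. In bulk tissue, fewer cells of a type and less RNA per cell cannot be told apart.

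Of the regulators, Trp53 (ENSMUSG00000059552, chromosome 11, 69580359 to 69591873 on mm10) measured 139 and 164 CPM in TAF10KO, 116 and 165 CPM in WT, and 108, 168 and 161 CPM in TAF10HET, always in the order of the replicate numbers. The 4 libraries of the second date code lay close together whatever the genotype, and the 3 of the first lay lower, with TAF10KO the highest of them. TAF10KO exceeded WT by a fitted 0.13 on the log2 scale (SE 0.105, edgeR adjusted p = 0.554). Mdm2, the ligase gene, was at 71.4 and 82.4 CPM in TAF10KO, 67 and 67.1 CPM in WT, and 59.5, 69.8 and 70.6 CPM in TAF10HET. Both TAF10KO values lay above the other 5, narrowly so for replicate 1, and the fitted log2 difference from WT was 0.19 (SE 0.0834, edgeR adjusted p = 0.286). Mdm4 was at 88 and 106 CPM in TAF10KO, 77 and 89 CPM in WT, and 68.9, 80.6 and 88.1 CPM in TAF10HET. TAF10KO was above WT within each date code (0.19 and 0.26 on the log2 scale) although the groups overlapped (fitted 0.22, SE 0.0786, edgeR adjusted p = 0.212).

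Among the arrest genes, Cdkn1a (ENSMUSG00000023067, chromosome 17, 29090976 to 29100727), which encodes the kinase inhibitor p21, measured 10.3 and 13.6 CPM in TAF10KO, 5.06 and 5.57 CPM in WT, and 9.88, 8.43 and 6.04 CPM in TAF10HET. Both TAF10KO values were above the other 5, both WT values were below the other 5, and TAF10HET lay between. The mean was 12 ± 2.37 CPM in TAF10KO and 5.32 ± 0.355 CPM in WT (SD, n = 2 each). The fitted log2 difference was 1.17 (SE 0.25), with 1.01 on the first date code and 1.28 on the second. Its adjusted p was 0.0893 with edgeR and 0.00533 with DESeq2, and under the alternatives tried it ranged from 1.99e-08 (no filter on low counts) to 0.946 (genotype as the only term), passing 0.05 in 5 of 15. Antisense exons overlap 273 of its exonic bases, and no strand setting is given for the counts.

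Plk2 (ENSMUSG00000021701, chromosome 13, 110395046 to 110400844), a polo-like kinase gene, was at 23.7 and 17.1 CPM in TAF10KO, 14.8 and 6.59 CPM in WT, and 24.4, 7 and 7.45 CPM in TAF10HET. On the first date code TAF10HET was as high as TAF10KO, and on the second TAF10KO stood alone. Against WT the fitted log2 difference was 1.06 (SE 0.29, edgeR adjusted p = 0.146, DESeq2 0.0185), and it was 0.49 without TAF10KO replicate 2 and 1.58 without replicate 1. Zmat3, which encodes a zinc finger RNA-binding protein, was at 11.6 and 11.1 CPM in TAF10KO, 8.34 and 5.85 CPM in WT, and 9.73, 7.5 and 7.39 CPM in TAF10HET. TAF10KO was above all 5 other libraries, and the fitted log2 difference from WT was 0.70 (SE 0.152, edgeR adjusted p = 0.0918, DESeq2 0.0519). Plk3, a related kinase gene with 31 to 138 counts per library, was at 3.01 and 3.17 CPM in TAF10KO, 2.4 and 1.44 CPM in WT, and 3.1, 2.63 and 2.4 CPM in TAF10HET. TAF10KO and WT did not overlap in it, and TAF10HET overlapped both (fitted 0.71, SE 0.253, edgeR adjusted p = 0.218).

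The other arrest genes did not share a direction. Gadd45a, a stress gene whose product binds PCNA, was at 51.2 and 95.3 CPM in TAF10KO, 53.7 and 66.1 CPM in WT, and 64.7, 77.2 and 71 CPM in TAF10HET. TAF10KO held both the lowest and the highest library (fitted log2 difference from WT 0.25, SE 0.165, edgeR adjusted p = 0.468). Btg2, which restrains proliferation, was at 95.8 and 130 CPM in TAF10KO, 109 and 159 CPM in WT, and 108, 166 and 147 CPM in TAF10HET. TAF10KO was the lowest library of each date code (fitted -0.23, SE 0.0893, edgeR adjusted p = 0.239). Sesn1, a sestrin gene that restrains the growth kinase mTORC1, was at 37.7 and 40.3 CPM in TAF10KO, 46.4 and 43.7 CPM in WT, and 46.4, 46.4 and 45.6 CPM in TAF10HET. Both TAF10KO values were below the other 5 (fitted -0.21, SE 0.0832, edgeR adjusted p = 0.253). The cyclin gene Ccng1 (0.10) and the spindle gene Psrc1 (0.20) had edgeR adjusted p of 0.73 and 0.324.

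Among the death genes, Bbc3 (ENSMUSG00000002083, chromosome 7, 16308393 to 16318205), which encodes the BH3-only protein PUMA, was at 7.47 and 17.3 CPM in TAF10KO, 5.47 and 6.26 CPM in WT, and 9.36, 9.86 and 5.04 CPM in TAF10HET. TAF10KO replicate 2 was far above all others, and replicate 1 was below 2 of the TAF10HET libraries. The fitted log2 difference from WT was 1.03 (SE 0.442, edgeR adjusted p = 0.294), and it was 0.27 without TAF10KO replicate 2. Pmaip1, which encodes the BH3-only protein NOXA, was at 3.86 and 6.52 CPM in TAF10KO, 3.17 and 3.94 CPM in WT, and 3.98, 4.1 and 2.99 CPM in TAF10HET. Again TAF10KO replicate 2 was the highest while replicate 1 lay among the rest (fitted 0.53, SE 0.267, edgeR adjusted p = 0.348).

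Bax, the pore-forming effector gene, was at 62.1 and 81.9 CPM in TAF10KO, 52.5 and 74.8 CPM in WT, and 51.2, 73.5 and 73.4 CPM in TAF10HET. TAF10KO was the highest library of each date code (fitted log2 difference from WT 0.19, SE 0.0726, edgeR adjusted p = 0.248). Of its exonic bases 192 also belong to the predicted gene Gm45808 on the same strand, so its counts are uncertain to that extent. Trp53inp1, which acts in autophagy and cell death, was at 15.3 and 18.6 CPM in TAF10KO, 16.4 and 11.2 CPM in WT, and 14.6, 12.9 and 10 CPM in TAF10HET. Its log2 difference from WT was -0.09 on the first date code and 0.72 on the second (fitted 0.32, SE 0.211, edgeR adjusted p = 0.456). The remaining death genes Phlda3, Eda2r, Fas, Tnfrsf10b, Perp, Ei24 and Aen had fitted log2 differences between -0.12 (Fas) and 0.49 (Eda2r), and their edgeR adjusted p ranged from 0.655 (Tnfrsf10b) to 0.998 (Phlda3).

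The 8 genes for repair, nucleotide supply and metabolism differed least between TAF10KO and WT, with a median fitted log2 difference of 0.05. Their differences ran from -0.16 in Rps27l to 0.19 in Ercc5, an endonuclease gene of nucleotide excision repair, and edgeR adjusted p from 0.38 (Ercc5) to 0.915 (Rrm2b). Ercc5 was at 28.2 and 32.1 CPM in TAF10KO and between 25.1 and 27.5 CPM in the other 5 libraries. Xpc, the damage sensor gene of the same repair route, was at 18.4 and 18.6 CPM in TAF10KO and between 15.4 and 17.5 CPM in the others. Both genes thus separated TAF10KO from the other 5 libraries by narrow margins. Ddb2 (0.10), Polk (0.03), Rrm2b (0.04), Fdxr (0.06) and Tigar (-0.12) overlapped between TAF10KO and WT. In Ddb2, 652 exonic bases overlap Acp2 on the opposite strand, so its reads may include those of Acp2.

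**Figure D2:**
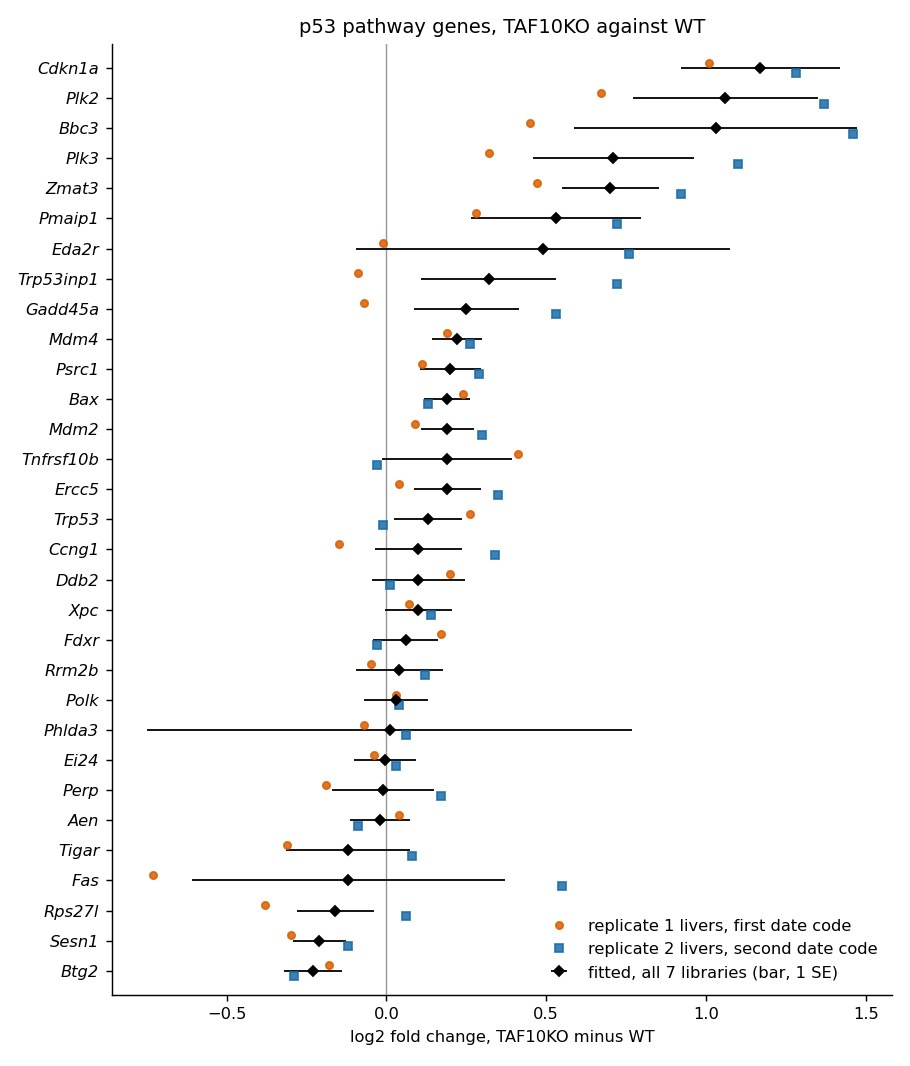
Log2 fold change of TAF10KO against WT for the 31 genes: circles and squares are the differences within the first and the second date code, and diamonds with bars are the fitted value and 1 SE. The second date code gave the larger value for Cdkn1a (1.28 against 1.01), Plk2 (1.37 against 0.67) and Bbc3 (1.46 against 0.45).

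TAF10KO and WT libraries did not overlap, with TAF10KO higher, in 9 of 31 genes (Bbc3, Cdkn1a, Ercc5, Mdm2, Plk2, Plk3, Psrc1, Xpc and Zmat3), against 15.2% of all genes, and with TAF10KO lower in Sesn1 alone, against 14.5%. TAF10KO was above WT within both date codes in 14 genes (45.2%, against 34.3% of all genes) and below it within both in Btg2 and Sesn1 (6.45%, against 30.4%). Both TAF10KO libraries exceeded all other 5 in Cdkn1a, Ercc5, Mdm2, Xpc and Zmat3 (16.1%, against 7.48%).

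The 2 TAF10KO livers differed from each other across the pathway. TAF10KO replicate 2 was the highest of the 7 libraries in 17 of the 31 genes (54.8%), against 15.8% of all genes, and the lowest in 0 of them, against 12.7%. Replicate 1 was the highest in 2 genes, Tnfrsf10b and Zmat3 (6.45%, against 14.2%), and the lowest in 5, Btg2, Ccng1, Gadd45a, Rps27l and Sesn1 (16.1%, against 16.7%). The 17 genes took in regulators (Mdm2 and Mdm4), arrest genes (Cdkn1a, Ccng1, Gadd45a, Plk3 and Psrc1), death genes (Bax, Bbc3, Eda2r, Pmaip1 and Trp53inp1) and repair genes (Ddb2, Ercc5, Polk, Rrm2b and Xpc). Within the first date code 18 genes were higher in TAF10KO than in WT, against 53% of all genes, with a median log2 difference of 0.04. Within the second 25 were higher, against 50.9%, with a median of 0.17. Without TAF10KO replicate 1, edgeR called 6 genes higher in TAF10KO than in WT (Ccng1, Cdkn1a, Gadd45a, Plk2, Trp53inp1 and Zmat3), beside 1282 of the 16237 genes then tested. Without replicate 2 it called 0 of the 31, beside 529 of 16298 genes. In both fits the single TAF10KO library left is assumed to vary like the other groups, and the counts do not test a difference between the 2 livers.

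TAF10KO replicate 2 also had the highest values of some gene lists outside the pathway. It had the most counts (43401474), and it was male, as was TAF10HET replicate 1. It had the highest summed levels of the neutrophil markers (732 CPM, 8 of 8 tested, against 283 to 478 CPM in the other 6). The same held for the megakaryocyte markers (770 CPM, 8 of 8, against 509 to 603 CPM) and the integrated stress response genes (2221 CPM, 12 of 12, against 1512 to 1870 CPM). The part of these differences in the p53 genes was not tested. With embryo sex as a further term edgeR called 6 genes (Bax, Cdkn1a, Mdm4, Plk2, Trp53 and Zmat3) between TAF10KO and WT, beside 2725 of the 15800 genes. Those calls compare TAF10KO with WT and do not measure the part of embryo sex. A test of whether the TAF10KO difference from WT itself differed between the date codes (edgeR interaction term, 1 residual degree of freedom) called 0 of the 31 genes, against 1.15% of all genes. At an unadjusted p under 0.05 it gave 6 genes, against 15.2%, with Gadd45a (log2 interaction 0.60, adjusted p = 0.0525) and Ccng1 (0.49, adjusted p = 0.0689) nearest to the threshold.

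**Figure D3:**
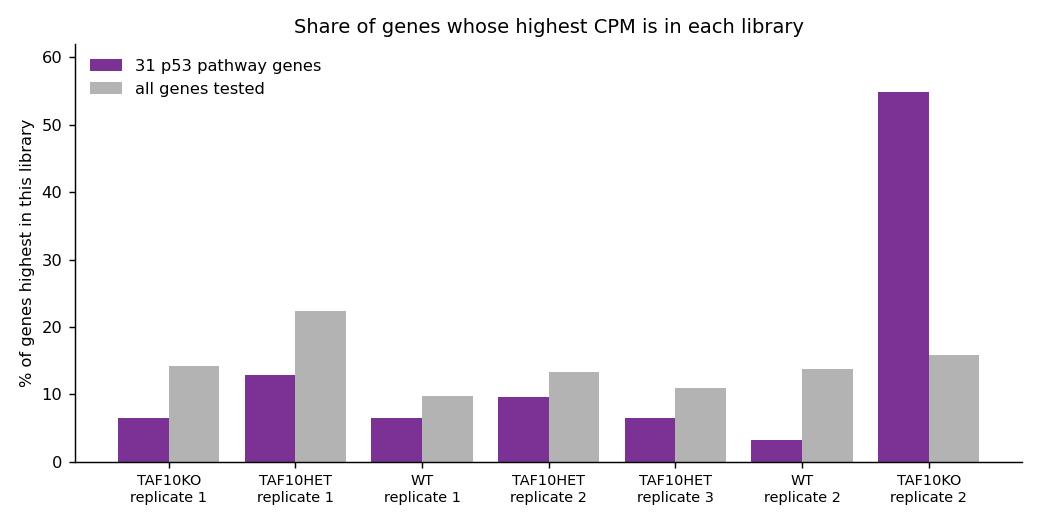
Share of genes (%) whose highest CPM of the 7 libraries falls in each library, for the 31 p53 pathway genes and for all genes tested. TAF10KO replicate 2 holds 54.8% of the p53 pathway genes and 15.8% of all genes.

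TAF10KO was next set against TAF10HET, whose livers also carry EpoCre; this comparison shares the TAF10KO libraries with the one above. After the scarce Eda2r mRNA (0.74, at most 64 counts), the largest fitted log2 differences were in Plk2 (0.69), Bbc3 (0.59) and Cdkn1a (0.56), with Zmat3 at 0.43 and Mdm4 at 0.34. edgeR called 0 of the 31 genes, against 1.61% of all genes. At an unadjusted p under 0.05 edgeR gave 6 higher (Bax, Cdkn1a, Mdm2, Mdm4, Plk2 and Zmat3, against 9.32%) and 3 lower (Btg2, Rps27l and Sesn1, against 7.8%), and DESeq2 called 1 gene, Mdm4, higher, against 4.84% of all genes (2.59% higher and 2.24% lower). Mdm4 was 0.35 above TAF10HET on the first date code and 0.33 on the second (SE of the fit 0.0722, adjusted p = 0.0755 with edgeR and 0.0237 with DESeq2). Cdkn1a was 0.06 above TAF10HET on the first date code and 0.93 on the second (SE of the fit 0.22, edgeR adjusted p = 0.256), and Plk2 -0.05 and 1.23 (SE 0.257, edgeR adjusted p = 0.242). TAF10HET replicate 1, the liver with a lox allele, thus lay near TAF10KO in Cdkn1a and Plk2, and the pair with a knockout allele lay below TAF10KO. In TAF10HET the kind of allele, the date code and embryo sex cannot be told apart. TAF10KO and TAF10HET did not overlap in Cdkn1a, Ercc5, Mdm2, Rrm2b, Trp53inp1, Xpc and Zmat3, with TAF10KO higher (22.6%, against 10.3% of all genes), and in Rps27l and Sesn1, with TAF10KO lower (6.45%, against 9.77%). Rps27l was at 109 and 145 CPM in TAF10KO and 152, 148 and 162 CPM in TAF10HET (log2 -0.26, SE 0.111, edgeR adjusted p = 0.288). TAF10KO was above TAF10HET within both date codes in 14 genes (45.2%, against 27.1%) and below it within both in Btg2, Rps27l, Sesn1 and Tigar (12.9%, against 24.7%). The median over the 31 genes was 0.16, and 0.003 over all genes.

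TAF10HET was also set against WT, which shares libraries with both comparisons above. Cdkn1a had the largest fitted log2 difference, 0.62 (SE 0.237, 1.53-fold, edgeR adjusted p = 0.999), with 0.95 on the first date code and 0.35 on the second. edgeR called 0 of the 31 genes, against 0.00633% of all genes; at an unadjusted p under 0.05 it gave Cdkn1a alone, higher (against 2.04%), and 0 lower (against 1.32%), and DESeq2 called 0 (against 0.057% of all genes, 0.0506% higher). Plk3 was at 0.55 (SE 0.246), Bbc3 at 0.44 (SE 0.417) and Plk2 at 0.38 (SE 0.272), each with an edgeR adjusted p of 0.999. The groups did not overlap in Ccng1, Cdkn1a, Psrc1 and Rps27l, with TAF10HET higher (12.9%, against 4.33% of all genes), and in Rrm2b, with TAF10HET lower (3.23%, against 4.95%). The median over the 31 genes was 0.01, as over all genes.

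Date code gave the most calls among these genes, 8 of 31, against 41.4% of all genes. From the first to the second code 7 of the 31 rose (Bax, Btg2, Ddb2, Fdxr, Gadd45a, Mdm4 and Trp53), against 18.7% of all genes, and Plk2 alone fell, against 22.7%, in the same edgeR fit. DESeq2 called the same 8 genes, against 39.1% of all genes (19.3% higher and 19.8% lower). Btg2 averaged 104 ± 7.15 CPM (SD, n = 3) on the first code and 151 ± 15.7 CPM (n = 4) on the second, a fitted log2 rise of 0.52 (SE 0.0701, edgeR adjusted p = 0.00151). Bax rose by 0.48 (SE 0.0572, edgeR adjusted p = 0.000897), from 55.3 ± 5.95 to 75.9 ± 4.05 CPM, and Trp53 by 0.47 (SE 0.0828, edgeR adjusted p = 0.00449), from 121 ± 16 to 164 ± 2.69 CPM. These 3 genes rose in each genotype, and their libraries did not overlap between the codes. Plk2 fell by 1.18 (SE 0.219, edgeR adjusted p = 0.00608), from 21 ± 5.35 to 9.53 ± 5.05 CPM, with -0.47 within TAF10KO, -1.75 within TAF10HET and -1.16 within WT. The second code's TAF10KO library, at 17.1 CPM, overlapped the first code's WT library, at 14.8 CPM. Bax, Btg2, Plk2 and Trp53 stayed called with any 1 of the 7 libraries left out, while Ddb2, Fdxr, Gadd45a and Mdm4 lost their calls without WT replicate 1 (adjusted p = 0.12, 0.196, 0.105 and 0.0772) and without WT replicate 2 (0.109, 0.158, 0.084 and 0.066). Gadd45a lost its call without TAF10HET replicate 2 as well (0.0682), and Fdxr without any TAF10HET library (0.0516, 0.0589 and 0.0763). The rise of Gadd45a was 0.20 without TAF10KO replicate 1 and 0.21 without TAF10KO replicate 2, and the change in Plk2 was -0.77 without TAF10HET replicate 1. Phlda3, with a fitted log2 difference of 1.41 (SE 0.61, edgeR adjusted p = 0.135), was further from 0 than the called genes. It varied widely within the second code, where TAF10HET replicate 3 was at 4.46 CPM and the other libraries between 18.7 and 22 CPM. Without TAF10HET replicate 3 edgeR called it. Libraries of the codes did not overlap in Bax, Btg2, Fdxr, Gadd45a, Polk and Trp53, higher on the second (19.4%, against 18.8% of all genes), and in Tnfrsf10b, lower on it (3.23%, against 23.6%).

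Over the 31 genes the median change with date code was 0.04 on the log2 scale, and 0.02 over all genes. Within genotypes it was 0.21 in TAF10KO (26 genes higher), -0.04 in TAF10HET (14 higher) and 0.003 in WT (16 higher). Of the 15800 genes tested, 7839 were higher within TAF10KO, 7969 within TAF10HET and 7999 within WT. In all 3 genotypes 10 genes were higher on the second code (32.3%, against 32.1% of all genes) and 4 were lower (12.9%, against 33.3%). What the code marks is not stated in the labels. The mesenchymal markers (8 of 8 tested) summed to between 1105 and 1976 CPM on the first code and between 150 and 270 CPM on the second, and all 8 fell. All 8 endothelial markers fell too, as did 8 of the 10 hepatocyte markers, against 22.7% of all genes, while 7 of the 10 erythroid markers rose, against 18.7%. The part of these shifts in the p53 genes was not tested.

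**Figure D4:**
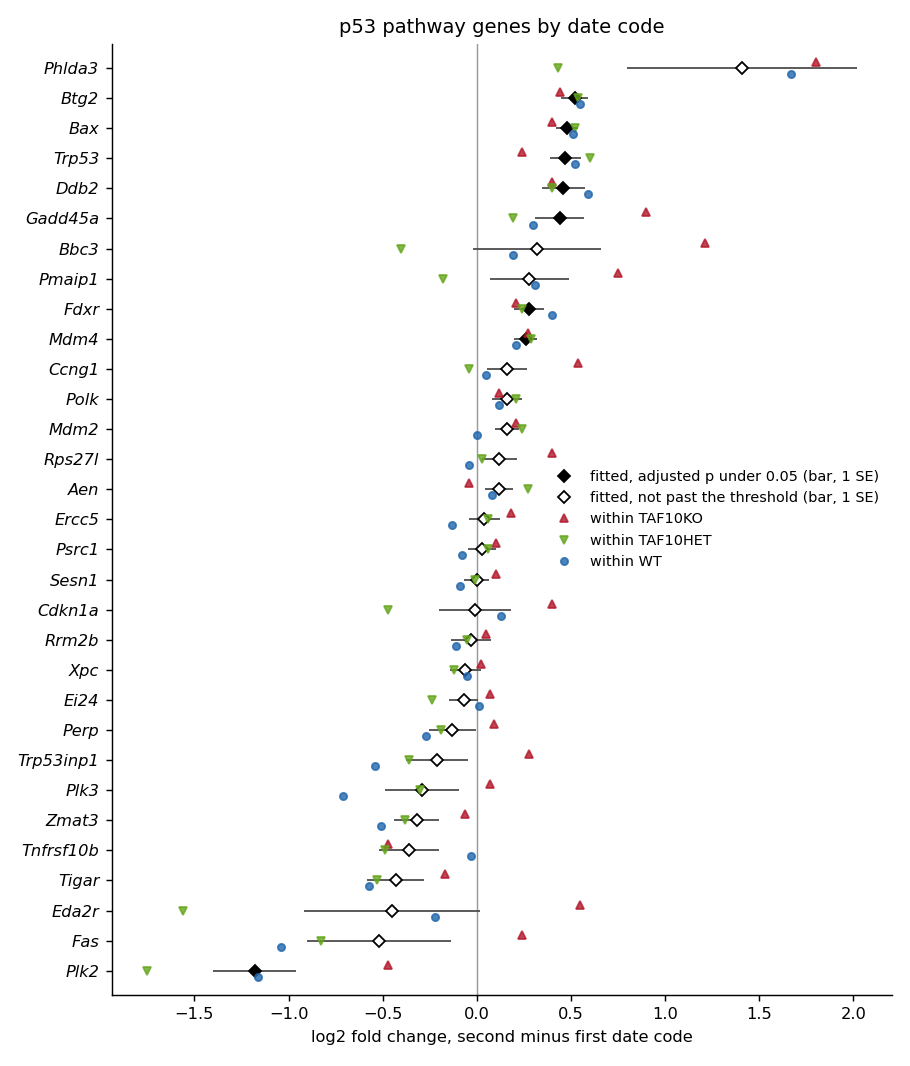
Log2 fold change from the first to the second date code for the 31 genes: diamonds with bars are the fitted value and 1 SE (filled where the edgeR adjusted p is under 0.05), and small markers are the change within each genotype. Plk2 fell by 1.18, and Btg2, Bax and Trp53 rose by 0.52, 0.48 and 0.47.

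Other genes of the pathway were taken from 3 further lists. Of 18 upstream regulators, which modify or bind p53, 15 were tested and edgeR called 0 between TAF10KO and WT (median log2 difference -0.05); Rpl5, the ribosomal protein gene whose product restrains MDM2, was the most abundant with 1239 ± 191 CPM in TAF10KO and 1170 ± 61 CPM in WT (SD, n = 2 each). The other 3, the p53 relatives Trp63 and Trp73 and the MDM2 inhibitor gene Cdkn2a, had at most 3, 7 and 2 counts in any library. Of 22 other known p53 targets 21 were tested, among them Trp53cor1, which passed the filter on low counts only through the TAF10KO libraries. With it included the median log2 difference was 0.17, and 1 of the 21 rose, against 0.481% of all genes. This was Sesn2 (ENSMUSG00000028893, chromosome 4, 132492032 to 132510501), a stress-induced sestrin gene also controlled by ATF4. Sesn2 was at 22.4 and 43.3 CPM in TAF10KO, 13.5 and 20 CPM in WT, and 13.6, 22.9 and 20.2 CPM in TAF10HET. TAF10KO had the highest value within each date code, and TAF10KO replicate 1 lay among the second code's other libraries. The log2 rise against WT was 0.93 (SE 0.126, edgeR adjusted p = 0.0355), and against TAF10HET 0.88 (SE 0.114, edgeR adjusted p = 0.0185). The call against WT was lost without WT replicate 1 (edgeR adjusted p = 0.322), without WT replicate 2 (0.663), without either TAF10HET library of the second code (0.0751 and 0.12), and with genotype as the only term (1); against TAF10HET it was lost without the same libraries (0.082, 0.0812, 0.066 and 0.122) and with genotype as the only term (0.93).

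Genes that p53 lowers through p21 and the DREAM complex (14 tested) had 0 calls in edgeR between TAF10KO and WT and a median log2 difference of -0.14. The most abundant of them, the topoisomerase gene Top2a, was at 1013 and 965 CPM in TAF10KO and 1096 and 1138 CPM in WT. Between the date codes 10 of these 14 rose, against 18.7% of all genes. The immediate early genes (12 tested), which respond to handling and growth signals, had 0 calls and a median of 0.56. Of 12 integrated stress response genes Slc7a11 and Vldlr rose in TAF10KO, against 0.481% of all genes, and the median log2 difference was 0.92, with 0.37 on the first date code and 1.27 on the second. Slc7a11, the cystine transporter gene, was at 5.57 and 12.6 CPM in TAF10KO, 1.68 and 2.32 CPM in WT and 1.34 to 2.05 CPM in TAF10HET (log2 2.10 against WT, SE 0.239, edgeR adjusted p = 0.0204). For Vldlr the edgeR adjusted p was 0.041, and both calls were lost with genotype as the only term.

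Markers of other cells moved with genotype as well. Between TAF10KO and WT, 2 of 8 endothelial markers rose, against 0.481% of all genes. These were Flt1 and Pecam1 (edgeR adjusted p = 0.0244 and 0.0438). The list summed to 245 to 476 CPM in TAF10KO, 175 to 305 in TAF10HET and 169 to 329 in WT. These ranges pool the date codes, between which the endothelial markers fell. Within each code TAF10KO had the highest sum. It was 476 CPM on the first, beside 305 in TAF10HET and 329 in WT, and 245 CPM on the second. In the erythroid list 1 of 10 (the transferrin receptor gene Tfrc, log2 -0.84, edgeR adjusted p = 0.0438) fell, against 0.127% of all genes. With genotype as the only term edgeR called 0 of all genes, so the calls of Flt1, Pecam1 and Tfrc were lost. The erythroid sum was 21400 to 31702 CPM in TAF10KO, 29289 to 42150 in TAF10HET and 27660 to 42582 in WT. Within each date code TAF10KO had the lowest erythroid sum. It was 21400 CPM on the first, beside 29289 in TAF10HET and 27660 in WT, and 31702 CPM on the second. The hepatocyte (10), macrophage (7 of 8 tested), neutrophil (8), megakaryocyte (8) and mesenchymal (8) lists had 0 calls in edgeR between TAF10KO and WT, with median log2 differences of -0.24, -0.33, 0.68, 0.23 and 0.55, beside 0.52 in the endothelial and -0.40 in the erythroid list. The neutrophil sum was 413 to 732 CPM in TAF10KO, 283 to 478 in TAF10HET and 337 to 445 in WT, and TAF10KO was highest within each date code. Between TAF10KO and TAF10HET, edgeR called Flt1, Kdr and Pecam1 (endothelial) and Mpo and Prtn3 (neutrophil) higher in TAF10KO, against 1.15% of all genes. It called C1qa (macrophage) and Tfrc lower, against 0.456%. The part of these marker shifts in the differences of Cdkn1a, Plk2 and the other p53 genes was not tested.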

How the data were processed

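Total RNA of 7 fetal livers was made into TruSeq libraries, per the labels' protocols. The authors deposited raw read counts by gene; the submitters' processing notes name TopHat2 2.0.8, DESeq2 and mm10. Which counter, annotation and strand setting were used is not given in the sources used here. The 5 summary lines of each file (39017 genes) stayed out. GENCODE M21 named 37693 genes; the 1324 unmatched ones held 0.198% of the counts. RefSeq gave the promoter windows.

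CPM are counts over the library total times its TMM factor, and log2 CPM used a prior count of 2. Genes passing filterByExpr by group (15800) were tested with edgeR 4.0.16 in R 4.3.3 (robust quasi-likelihood fit of date code and genotype on all 7 libraries, two-sided, Benjamini-Hochberg over all genes, threshold 0.05); the SE is the absolute log2 difference over the square root of F. Two-sided DESeq2 1.42.0, filters, scalings, a sex term, genotype as the only term and each library left out were alternatives. On simulated counts for TAF10KO against WT among 15800 genes, the edgeR fit recovered 87% of changes of log2 1 and 100% of those of log2 2. It made 12 false calls. The changes were planted only in genes with a mean log2 CPM above 1. Counts were drawn with the spread of the fitted trend, without the extra spread of single genes. The shares recovered therefore do not tell how often such changes would be found in these livers.

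The date code was taken as a replicate block shared by livers of 1 day, which the labels do not state: deviations from group means correlated at 0.40 to 0.74 in 8 library pairs of the same code and at -0.74 to -0.40 in 8 pairs of different codes, partly by construction in groups of 2. The members and gene lists were chosen with earlier results of these data known. Given library by library were Trp53, Mdm2, Cdkn1a, Bax and the members with the largest TAF10KO-WT difference up to 14; for date code the 3 largest called rises and the called fall; per further list the called genes or the most abundant one. Genes named by a count were named after their values were seen. Ppm1d, Gdf15, Trib3 and Ddit4 were named outside these rules.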

Additional observations from a re-analysis of the deposited data

How the results depend on the processing

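With no replicate block (genotype as the only term), edgeR called 0 of the 31 genes in each genotype comparison and 0 of all genes. DESeq2 with genotype only, added after seeing the data, also called 0 of the 31. Of all genes it called 0.63% for TAF10KO against WT, 0.917% for TAF10KO against TAF10HET and 0.019% for TAF10HET against WT. The median for TAF10HET against WT moved to 0.05 in this edgeR fit and 0.06 in this DESeq2 fit. For TAF10KO against WT the genes called numbered 2 with DESeq2, 4 with no filter on low counts and 6 with embryo sex as a term. With TAF10HET replicate 1 left out they numbered 3, beside 887 of 15701 genes. With TAF10HET replicate 2 or 3 left out they numbered 0, beside 31 of 15620 and 13 of 15827 genes. For TAF10KO against TAF10HET the genes called with DESeq2, no filter and the sex term numbered 1, 5 and 10 (7 higher, 3 lower). Over all genes these fits called 690, 1498 and 2743. With no filter 27480 genes were tested, in place of 15800. Without TAF10HET replicate 1 the genes called numbered 1, beside 486 of 15701 genes. Without TAF10HET replicate 2 or 3 they numbered 0, beside 42 of 15620 and 16 of 15827 genes. Leaving out a TAF10KO library moved this comparison more: the median log2 difference was 0.26 without TAF10KO replicate 1 and 0.01 without replicate 2. The sex term and no filter also raised the genes called over the whole table for TAF10KO against WT, from 96 to 2725 and 1399, DESeq2 gave 589, and leaving out either WT library gave 0. Date code gave 4 to 11 genes with 1 library left out, beside 3206 to 7303 of all genes. Leaving out 1 library moved the medians to between 0.05 and 0.23 (TAF10KO against WT), 0.01 and 0.26 (TAF10KO against TAF10HET), -0.02 and 0.06 (TAF10HET against WT) and -0.06 and 0.12 (date code). Signs turned in 10 single-gene values, given with each gene's range over the left-out libraries. For TAF10KO against WT these were Trp53 without TAF10KO replicate 1 (-0.03 to 0.26), and Trp53inp1 (-0.08 to 0.67) and Gadd45a (-0.13 to 0.56) without TAF10KO replicate 2. For TAF10KO against TAF10HET they were Bbc3 (-0.23 to 1.12), Plk3 (-0.19 to 0.39), Trp53inp1 (-0.02 to 0.72) and Gadd45a (-0.34 to 0.35) without TAF10KO replicate 2, and Gadd45a without TAF10HET replicate 3 (-0.003). For TAF10HET against WT they were Plk2 (-0.11 to 0.50) and Bbc3 (-0.02 to 0.71) without TAF10HET replicate 1. The cause was not tested. Of all other values, 612 kept direction and call, 46 newly passed and 54 no longer passed the threshold. With 2 or 3 livers per group, counts as low as 7 in Fas and Eda2r limit what could be seen.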

Other observations

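Phlda3, a gene for an inhibitor of AKT signalling, varied between livers of the same genotype and date code. It was at 22 CPM in TAF10HET replicate 2 and at 4.46 CPM in replicate 3, livers with the same allele labels and the same code, a log2 difference of 2.28. Between these 2 libraries the median absolute log2 difference was 0.11 over the 31 genes and 0.11 over all genes tested. In the other libraries Phlda3 stood at 18.7 CPM (WT replicate 2) and 19.5 CPM (TAF10KO replicate 2) on the second code and between 5.54 and 7.35 CPM on the first.

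Trp53cor1, the p53-induced noncoding RNA gene upstream of Cdkn1a, had 1 to 38 counts per library. It was at 0.489 and 0.873 CPM in TAF10KO, 0.182 and 0.0464 CPM in WT, and 0.362, 0.0773 and 0.235 CPM in TAF10HET. Only the TAF10KO libraries carried it past the filter on low counts, so its fitted difference is not given. It was singled out after its values were seen. Ppm1d, which encodes a phosphatase that restrains p53, was at 40.3 and 47.8 CPM in TAF10KO and between 51.3 and 68.4 CPM in the other 5 libraries (log2 difference from WT -0.33, SE 0.112, edgeR adjusted p = 0.205). The p53 target Gdf15 was at 3.96 and 3.74 CPM in TAF10KO and 4.01 and 1.99 CPM in WT. Its log2 difference from WT was 0.40 (SE 0.255, edgeR adjusted p = 0.442).

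The stress genes Trib3 and Ddit4, like Bbc3, were far higher in TAF10KO replicate 2 than in replicate 1. Unlike in Bbc3, replicate 1 was also above the other 5 libraries in both. Trib3, a target of ATF4 and CHOP, was at 30.3 CPM in TAF10KO replicate 1, 108 CPM in replicate 2 and between 8.09 and 15 CPM in the other 5 libraries (log2 difference from WT 2.43, SE 0.478, edgeR adjusted p = 0.109). Ddit4, which restrains mTORC1 and responds to p53 and to ATF4, was at 15.2 and 41.6 CPM in TAF10KO and between 4.63 and 8.59 CPM elsewhere (log2 difference from WT 2.20, SE 0.582, edgeR adjusted p = 0.164).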
